A study of Homo sapiens with 16 samples.

Results

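Open chromatin was examined around 4 leukaemia genes, TAL1, LYL1, LMO1 and LMO2, in 16 ATAC-seq peak lists from the human T-cell acute lymphoblastic leukaemia (T-ALL) lines MOLT4 and DND41. ATAC-seq uses the Tn5 transposase to tag accessible DNA, and a peak is a stretch of DNA where tagged fragments pile up. The members are peaks inside 4 fixed windows of the hg19 genome: chr1:47640000-47790000 for TAL1 with the STIL side upstream of it, chr19:13200000-13225000 for LYL1, chr11:8235000-8300000 for LMO1 and chr11:33860000-33990000 for LMO2. Merging all peaks with 1 base or more in common into regions gave 24 regions in the windows out of 131357 genome-wide. The TAL1 window held 10 regions, the LYL1 window 4, the LMO1 window 4 and the LMO2 window 6, and 0 of them crossed a window edge. Regions are numbered below by position within each window, and the level given for a region is the number of its bases that the peaks of a library covered, with 0 where the library had no peak.

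Each line was given 100 nM ACBI-1 or the solvent DMSO for 3 h or 24 h, and each of the 8 groups has 2 libraries. ACBI-1 is a PROTAC, a small molecule that directs its targets to the proteasome; its targets are SMARCA2 and SMARCA4, the ATPases of the SWI/SNF nucleosome remodelling complexes, and the subunit PBRM1. The labels name no genetic change made in either line. Each line is a long-cultured derivative of 1 leukaemia, so a difference between MOLT4 and DND41 is a difference between 2 cell lines. Lines were taken from the sample titles, because the cell line field named the other line in 8 of 16 samples, while the codes inside the peak names matched the title in 16 of 16. The deposited lists hold positions only, so read depth is unknown and a missing peak may be a site under the detection limit of that library. Lists held 26145 to 33870 peaks with ACBI-1 and 39117 to 46712 peaks with DMSO, so any count of peaks in the windows is read against lists whose mean length fell by 27.8% with ACBI-1 (exact permutation p = 0.00154). Because no hg19 gene annotation was used, regions were not assigned to exons, introns or promoters, and T-cell markers were not checked.

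TAL1 and LYL1 are closely related basic helix-loop-helix transcription factors that bind E-box DNA together with E proteins such as TCF3 and TCF12. LMO1 and LMO2 are LIM-only adaptor proteins that do not bind DNA themselves and join TAL1 or LYL1, through LDB1, to GATA factors. TAL1, LYL1 and LMO2 act in normal blood stem and progenitor cells and are turned down as thymocytes mature. Ectopic expression of any of the 4 genes in T-ALL can arise through translocation, and for TAL1 also through deletion of the DNA between STIL and TAL1 or through small insertions that create a new enhancer upstream of the gene. MOLT4 is usually counted among the TAL1-expressing lines and DND41 among the lines with a rearranged TLX3 gene. Expression was not measured in these files.

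The RefSeq promoter sequences are shown here because both basic helix-loop-helix genes carry GATA-type letters close to their start, the kind of motif bound by the GATA partner of the complex. Both sequences run 5′ to 3′ on the coding strand, from 250 bases before to 50 bases after the annotated start, from RefSeq on GRCh38.p14. Capitals mark CTTATC, the reverse complement of GATAAG. The first of 2 TAL1 entries and the LYL1 entry each held 2 matches, while the other TAL1 entry and the LMO1 entry held 0. LMO2 had no promoter entry and was not searched.
TAL1 promoter: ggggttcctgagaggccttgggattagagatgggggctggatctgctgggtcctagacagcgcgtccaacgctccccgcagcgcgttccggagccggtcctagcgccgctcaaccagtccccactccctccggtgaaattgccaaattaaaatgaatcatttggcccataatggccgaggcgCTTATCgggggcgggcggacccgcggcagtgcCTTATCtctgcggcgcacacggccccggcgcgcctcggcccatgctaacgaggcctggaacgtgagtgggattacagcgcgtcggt
LYL1 promoter: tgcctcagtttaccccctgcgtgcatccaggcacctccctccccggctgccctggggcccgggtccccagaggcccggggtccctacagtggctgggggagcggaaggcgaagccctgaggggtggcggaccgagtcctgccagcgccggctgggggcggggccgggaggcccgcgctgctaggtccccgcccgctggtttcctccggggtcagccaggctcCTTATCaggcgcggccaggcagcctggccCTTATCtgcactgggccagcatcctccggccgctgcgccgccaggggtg
GATAAG was searched on both strands, and the letters were chosen after the promoters had been read. Of 35116 RefSeq promoters of the same 300 bases, 6.36% held at least 1 match and 0.356% held at least 2. The matches are a description of the letters and not of binding, and the build differs from that of the peaks, so the promoters were not placed relative to the regions described below.

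Across the windows, recurrent open sites made up most of the regions, and several of them were seen in MOLT4 alone. A peak in all 16 libraries was found at 2 of 24 regions, both in the TAL1 window, against 9.16% of regions genome-wide. Peaks in at least 4 libraries were found at 14 of 24 regions, against 34.3% genome-wide. A further 9 regions had a peak in 1 library only, against 51.0% genome-wide, and these 9 peaks came from 6 libraries. All 9 peaks were in MOLT4 libraries, against 36.9% of such regions genome-wide, and 7 were in MOLT4 libraries given ACBI-1, against 20.6%. The first MOLT4 library given ACBI-1 for 24 h held 4 of the 9. No DND41 library had a peak at 14 of 24 regions, against 27.6% genome-wide. Of those, 5 had a peak in more than 1 MOLT4 library, which is 5 of all 24 against 8.84% genome-wide. Regions without a MOLT4 peak numbered 0 of 24, against 40.6% genome-wide.

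**Figure D1:**
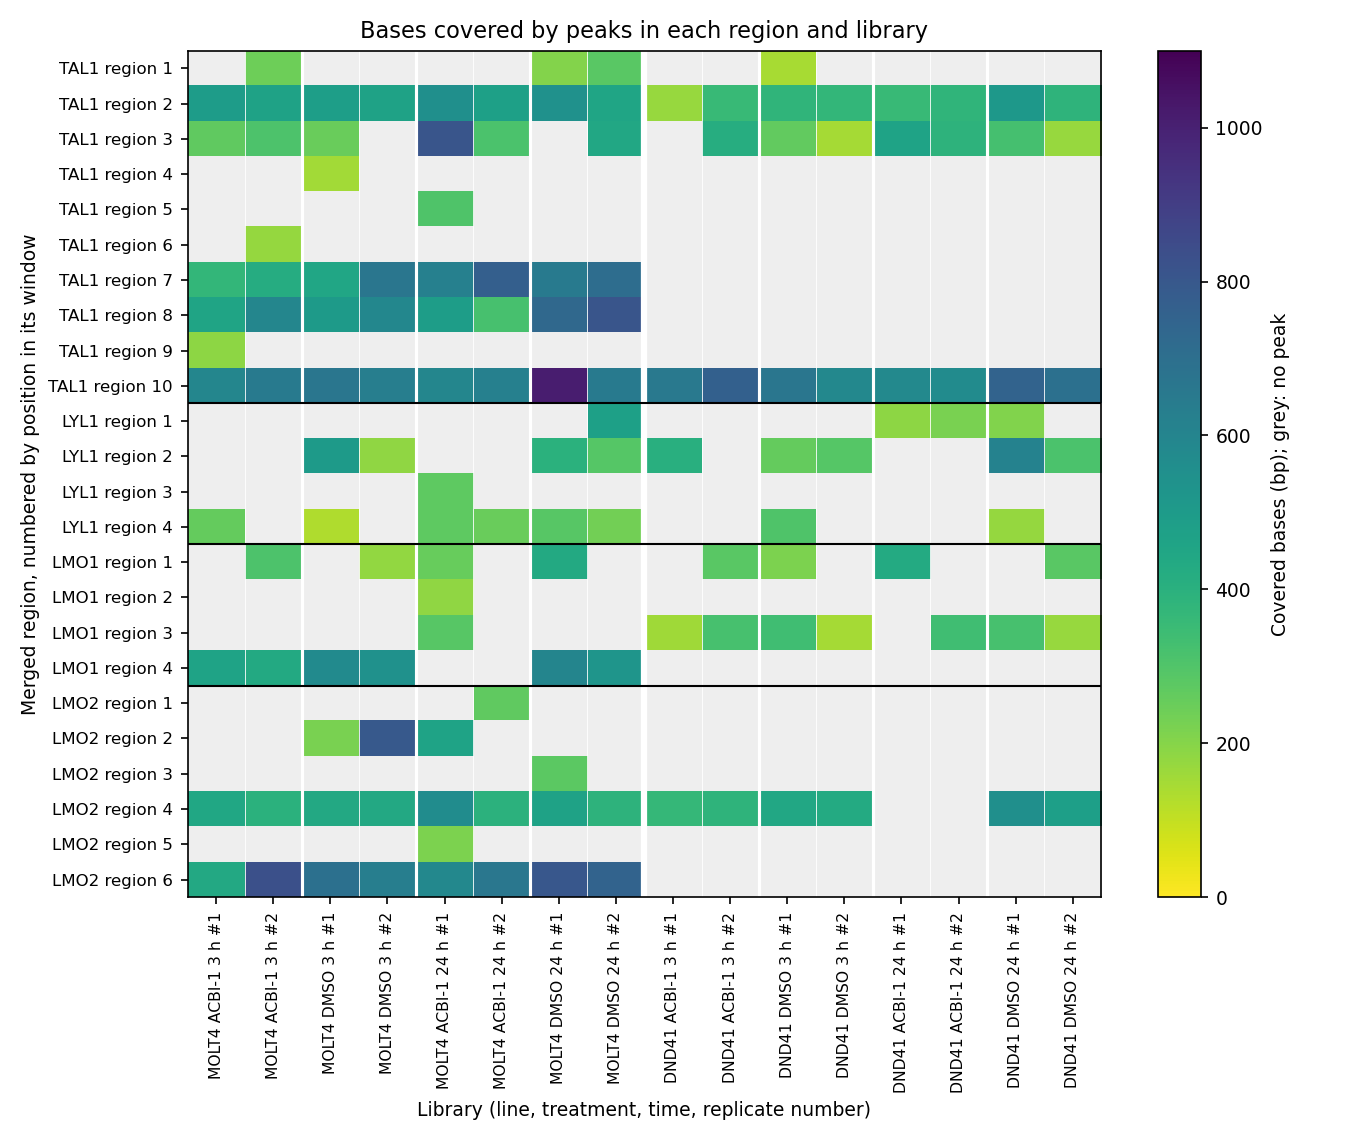
Bases covered by peaks (colour scale, bp; grey, no peak) at the 24 merged regions of the TAL1, LYL1, LMO1 and LMO2 windows (rows, by position) in each of the 16 libraries (columns, with the replicate number after #). TAL1 regions 7 and 8 and LMO2 region 6 are filled in all 8 MOLT4 columns and grey in all 8 DND41 columns, LYL1 region 2 is filled in 1 ACBI-1 column and 8 DMSO columns, and LMO2 region 4 is grey in 2 columns.

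The first comparison was between the lines, MOLT4 against DND41. The TAL1 and LMO2 windows each held open sites in all MOLT4 lists that no DND41 list contained. The TAL1 window held 2 such sites and the LMO2 window 1, and each site had a peak in 8 of 8 MOLT4 libraries and 0 of 8 DND41 libraries. The LMO1 window showed both directions, with 1 site seen in MOLT4 alone and another that was more frequent in DND41. No site of the LYL1 window was called between the lines.

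TAL1 region 7 (chr1:47690861-47691653) covered 371 and 418 bases in MOLT4 after 3 h of ACBI-1 and 449 and 667 bases after 3 h of DMSO. After 24 h the same region covered 623 and 765 bases with ACBI-1 and 647 and 707 bases with DMSO. Every MOLT4 library had the peak, at a mean of 581 ± 147 bases (SD, n = 8), and every DND41 library stood at 0. TAL1 region 8 (chr1:47704609-47705524) lay 12955 bases further along the chromosome. It covered 457 and 596 bases in MOLT4 after 3 h of ACBI-1 and 502 and 592 bases after 3 h of DMSO. After 24 h it covered 489 and 319 bases with ACBI-1 and 727 and 810 bases with DMSO. The MOLT4 mean was 562 ± 156 bases (SD, n = 8), again with 0 in all 8 DND41 libraries, so the lines did not overlap at either site.

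LMO2 region 6 (chr11:33956390-33957430) behaved in the same way as the 2 TAL1 sites. It covered 435 and 832 bases in MOLT4 after 3 h of ACBI-1 and 694 and 630 bases after 3 h of DMSO. After 24 h it covered 588 and 663 bases with ACBI-1 and 800 and 749 bases with DMSO. The MOLT4 mean was 674 ± 127 bases (SD, n = 8), the region was split into 2 peaks in 2 of those libraries, and DND41 was at 0 throughout. Ranked by covered bases against the peak widths of its list, LMO2 region 6 exceeded 60.9% to 89.5% of peaks in the 4 MOLT4 ACBI-1 libraries. In the 4 MOLT4 DMSO libraries it exceeded 79.5% to 85.6%. In the 2 libraries where it was split, the bases of both peaks were added, so no single peak there was that wide. The peak at TAL1 region 7 was wider than 53.1% to 81.9% of peaks with ACBI-1 and 66.9% to 82.1% with DMSO, and that at TAL1 region 8 wider than 40.7% to 73.0% with ACBI-1 and 72.0% to 83.3% with DMSO. Relative to their lists the covered bases at the 3 sites were thus high with DMSO and more variable with ACBI-1.

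LMO1 region 4 (chr11:8289307-8289924) was also confined to MOLT4 in these lists, but not to all of its libraries. It covered 462 and 432 bases after 3 h of ACBI-1 and 575 and 543 bases after 3 h of DMSO. At 24 h it was at 0 in both ACBI-1 libraries, against 599 and 526 bases with DMSO. LMO1 region 3 (chr11:8285283-8285771), 3535 bases away, had the opposite pattern, with a peak in 1 of 8 MOLT4 libraries, of 286 bases after 24 h of ACBI-1, against 7 of 8 DND41 libraries. In DND41 it covered 157 and 322 bases after 3 h of ACBI-1 and 337 and 147 bases after 3 h of DMSO. At 24 h it covered 0 and 337 bases with ACBI-1 and 318 and 170 bases with DMSO. Peaks at LMO1 region 3 were thus narrower than those at LMO1 region 4, and the lines overlapped there because 1 MOLT4 library had the peak and 1 DND41 library lacked it.

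**Figure D2:**
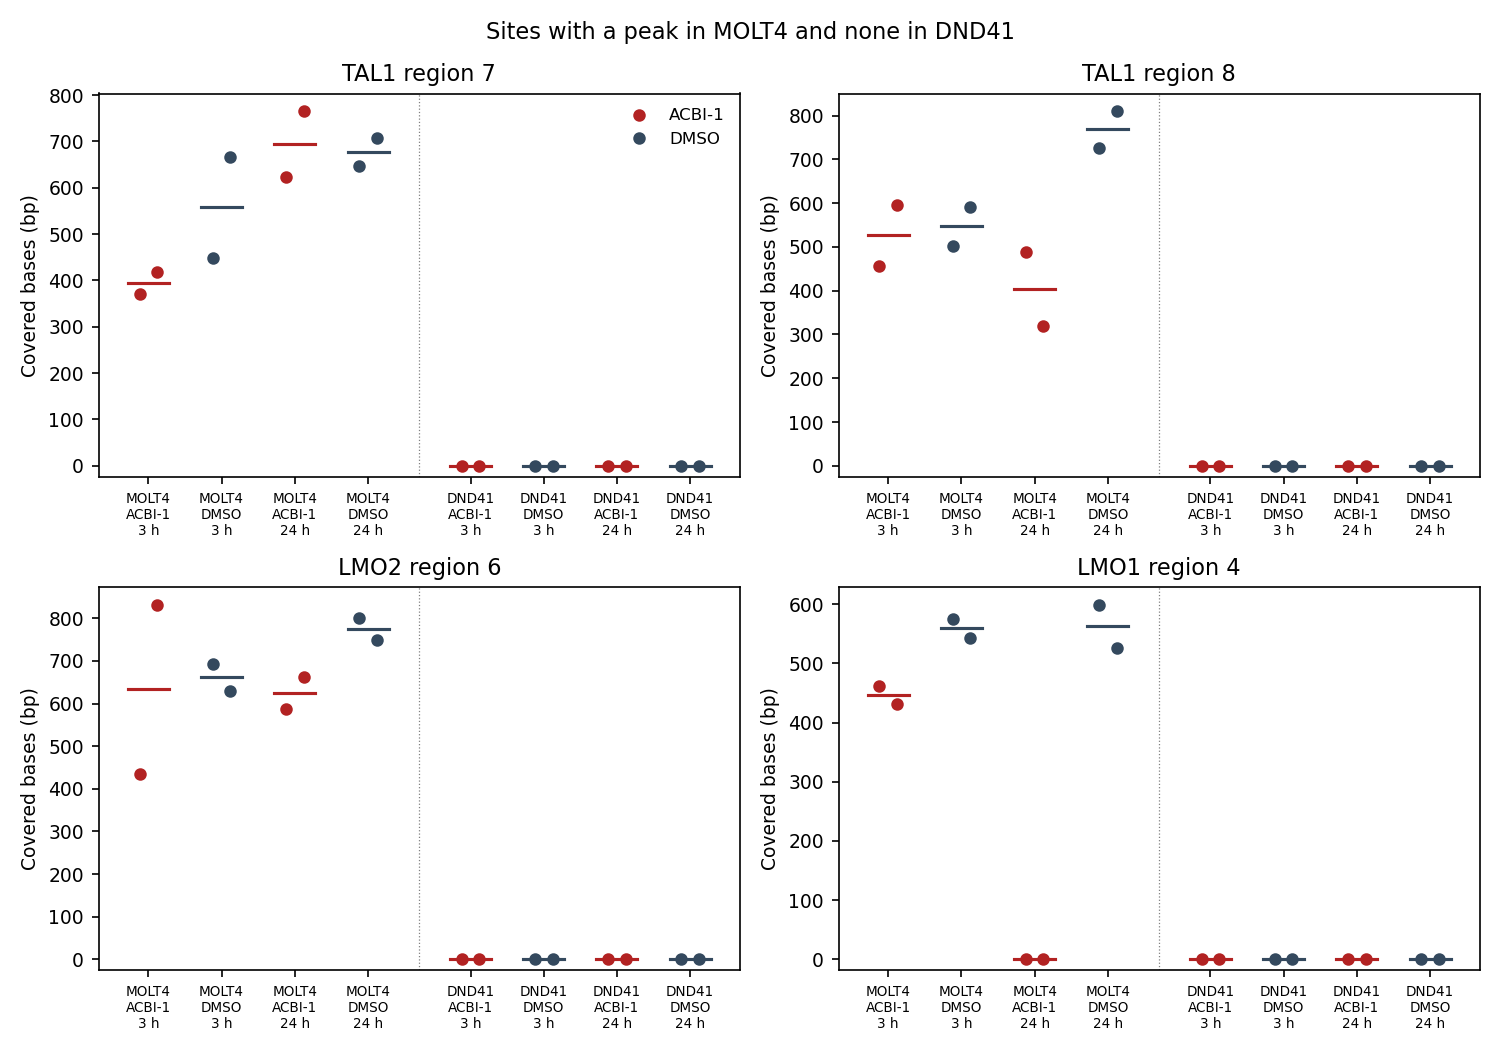
Covered bases (bp, linear axis from 0) at TAL1 region 7, TAL1 region 8, LMO2 region 6 and LMO1 region 4 in the 8 groups; each point is 1 library and each bar the mean of 2. All 8 DND41 libraries are at 0 in each panel, and in MOLT4 the peak is present in every library except the 2 given ACBI-1 for 24 h at LMO1 region 4.

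For presence, line labels were exchanged within each time and treatment in an exact permutation test, two-sided, with Benjamini-Hochberg adjustment over all 11709 testable regions and a threshold of 0.05. Of 7 testable regions in the windows 5 were called, against 64.2% genome-wide, so the share of calls in the windows is close to that of the genome. TAL1 region 7, TAL1 region 8 and LMO2 region 6 each differed by 1.0 in the share of libraries with a peak (exact p = 0.00154, the smallest the exchanges can give, adjusted p = 0.0111). LMO1 region 4 differed by 0.75, with a peak in 6 of 8 MOLT4 libraries and 0 of 8 DND41 libraries (exact p = 0.00926, adjusted p = 0.0267). These 4 were more frequent in MOLT4, a direction called at 40.8% of testable regions. LMO1 region 3 differed by -0.75 (exact p = 0.0262, adjusted p = 0.0433) and was more frequent in DND41, a direction called at 23.3%.

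The call at LMO1 region 3 was the least stable of the 5. Its adjusted p was 0.0980 without the second MOLT4 or the second DND41 library given ACBI-1 for 24 h, 0.396 with peaks under 200 bp left out, where the difference was -0.38, and 0.196 with lists of equal length. LYL1 region 4 (exact p = 0.153, adjusted p = 0.201) and LMO1 region 1 (exact p = 1, adjusted p = 1) were not called between the lines. LMO1 region 1 (chr11:8247122-8247687) had a peak in 4 of 8 libraries of each line, and had the largest median cover of the LMO1 window. It covered 0 and 306 bases in MOLT4 after 3 h of ACBI-1, 0 and 177 bases after 3 h of DMSO, 257 and 0 bases after 24 h of ACBI-1 and 430 and 0 bases after 24 h of DMSO. In DND41 it covered 0 and 282 bases after 3 h of ACBI-1, 216 and 0 bases after 3 h of DMSO, 426 and 0 bases after 24 h of ACBI-1 and 0 and 282 bases after 24 h of DMSO. In each of the 8 groups exactly 1 of the 2 libraries had this peak, so at LMO1 region 1 the libraries of a group disagreed every time. A peak in every library of one line and none of the other was common enough genome-wide to be read with care: of 15915 regions with a peak in all 8 MOLT4 libraries, 7.80% had none in DND41, and in the windows this held for 3 of 6.

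The 2 regions found in all 16 libraries gave the width comparison between the lines. TAL1 region 10 (chr1:47779204-47780265) lay 73679 bases from TAL1 region 8 and was the broadest of the window. It covered 597 and 646 bases in MOLT4 after 3 h of ACBI-1 and 669 and 629 bases after 3 h of DMSO, and at 24 h 597 and 623 bases with ACBI-1 and 1011 and 651 bases with DMSO. In DND41 it covered 656 and 764 bases after 3 h of ACBI-1 and 667 and 586 bases after 3 h of DMSO, and at 24 h 581 and 571 bases with ACBI-1 and 749 and 692 bases with DMSO. The lines overlapped almost completely at TAL1 region 10, with 678 ± 137 bases in MOLT4 and 658 ± 75.1 bases in DND41 (SD, n = 8 each), and 1 MOLT4 DMSO library stood above all others.

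TAL1 region 2 (chr1:47644774-47645393) covered 454 to 552 bases in MOLT4, with a median of 479 bases, and 170 to 513 bases in DND41, with a median of 374.5 bases. With limma on log2 covered bases over the 12037 regions present in all libraries, TAL1 region 2 was 0.48 log2 broader in MOLT4 (SE 0.14, adjusted p = 0.0529) and TAL1 region 10 differed by 0.03 log2 (SE 0.09, adjusted p = 0.868). The limma fit called 0 of these 2 regions, against 9.68% of all regions, with 1 of 2 at an unadjusted p under 0.05, and the median difference over all regions was 0.04 log2. The value for TAL1 region 2 lay at the threshold: it passed with widths centred per library (adjusted p = 0.0350), with lists of equal length, just under the threshold, and in the fit of log2(covered bases + 100) over regions in at least 8 libraries (adjusted p = 0.0306). It also passed without the first DND41 library given ACBI-1 for 3 h, with 0.35 log2 (adjusted p = 0.0285), and without the second, with 0.62 log2 (adjusted p = 0.00262).

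Summed over each window, the TAL1 and LMO2 windows were more open in MOLT4. These sums include the sites above with a peak in every MOLT4 library and no DND41 library. They are therefore not independent of the calls at those sites. Peaks covered 2803 ± 431 bases of the 150 kb TAL1 window in MOLT4 and 1313 ± 251 bases in DND41 (SD, n = 8 each), a ratio of 2.14 (two-sided exact permutation p = 0.00154). MOLT4 libraries covered 2356 to 3377 bases and DND41 libraries 826 to 1588 bases, without overlap. Peaks covered 1395 ± 337 bases of the 130 kb LMO2 window in MOLT4 and 332 ± 212 bases in DND41 (SD, n = 8 each), a ratio of 4.21 (two-sided exact permutation p = 0.00154). The LMO2 ranges of 880 to 1858 bases in MOLT4 and 0 to 551 bases in DND41 did not overlap either. Windows of these sizes elsewhere in the genome were not compared, so how often they separate the lines is unknown. By presence, 64.2% of testable regions genome-wide were called between the lines. Peak number moved the same way, with 5.63 peaks in MOLT4 against 3 peaks in DND41 in the TAL1 window (exact permutation p = 0.00309) and 3 against 0.75 in the LMO2 window (exact permutation p = 0.00154).

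No difference between the lines was detected in the LYL1 window, at 443 ± 327 bases in MOLT4 and 372 ± 300.3 bases in DND41 (SD, n = 8 each, exact permutation p = 0.596). The LMO1 window covered 597 ± 297 bases in MOLT4 and 374 ± 168 bases in DND41 (SD, n = 8 each, exact permutation p = 0.106), where regions 3 and 4 run in opposite directions. Without the second MOLT4 library given ACBI-1 for 24 h, in which the LMO1 window had no peak, the LMO1 difference was 313 bases (exact permutation p = 0.0108). The p-values for whole windows, here and below, are not adjusted: 16 tests were made on covered bases and peak number, and as many again on shares of the list.

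The second comparison was between ACBI-1 and DMSO. TAL1 regions 7 and 8 and LMO2 region 6, the sites with a peak in all MOLT4 libraries and no DND41 library, had peaks after both 3 h and 24 h of ACBI-1, while a site in the LYL1 window lost its peak in nearly all ACBI-1 libraries of both lines. A site in the LMO2 window of DND41 and a site in the LMO1 window of MOLT4 had peaks at 3 h of ACBI-1 and none at 24 h. SWI/SNF complexes slide and evict nucleosomes at many enhancers, and the comparison asks which open sites at these genes were still called when the SWI/SNF ATPases were targeted.

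LYL1 region 2 (chr19:13210136-13210854) was the broadest site of the LYL1 window. In MOLT4 it was at 0 in both libraries given ACBI-1 for 3 h, against 500 and 181 bases with DMSO. After 24 h it was again at 0 in both MOLT4 ACBI-1 libraries, against 397 and 291 bases with DMSO. In DND41 it covered 405 and 0 bases after 3 h of ACBI-1 and 259 and 289 bases after 3 h of DMSO. At 24 h it was at 0 in both DND41 ACBI-1 libraries, against 613 and 313 bases with DMSO. The site therefore had a peak in 1 of 8 ACBI-1 libraries and 8 of 8 DMSO libraries, and the single ACBI-1 peak lay within the DMSO range.

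That difference of -0.875 in the share of libraries with a peak had an exact permutation p of 0.00463, and an adjusted p of 0.0442 over 8082 testable regions. LYL1 region 2 was the 1 region called among the 2 testable in the windows, and genome-wide 27.9% of testable regions were called as lost with ACBI-1 and 0.111% as gained. The call sat close to the threshold. It was lost, with adjusted p up to 0.0523, without any 1 of 8 libraries: the second MOLT4 DMSO library of 3 h, both MOLT4 ACBI-1 libraries of 24 h, both DND41 ACBI-1 libraries of 3 h, the first DND41 DMSO library of 3 h and both DND41 ACBI-1 libraries of 24 h. Without the second DND41 ACBI-1 library of 3 h, 1110 regions were still called as lost genome-wide. Without any other of these 8 libraries 0 were, so there the loss of the call was not particular to LYL1 region 2. With peaks under 200 bp left out the adjusted p was 0.0563, and with every list reduced to the 26145 widest peaks it was 0.310, with a difference of -0.50.

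**Figure D3:**
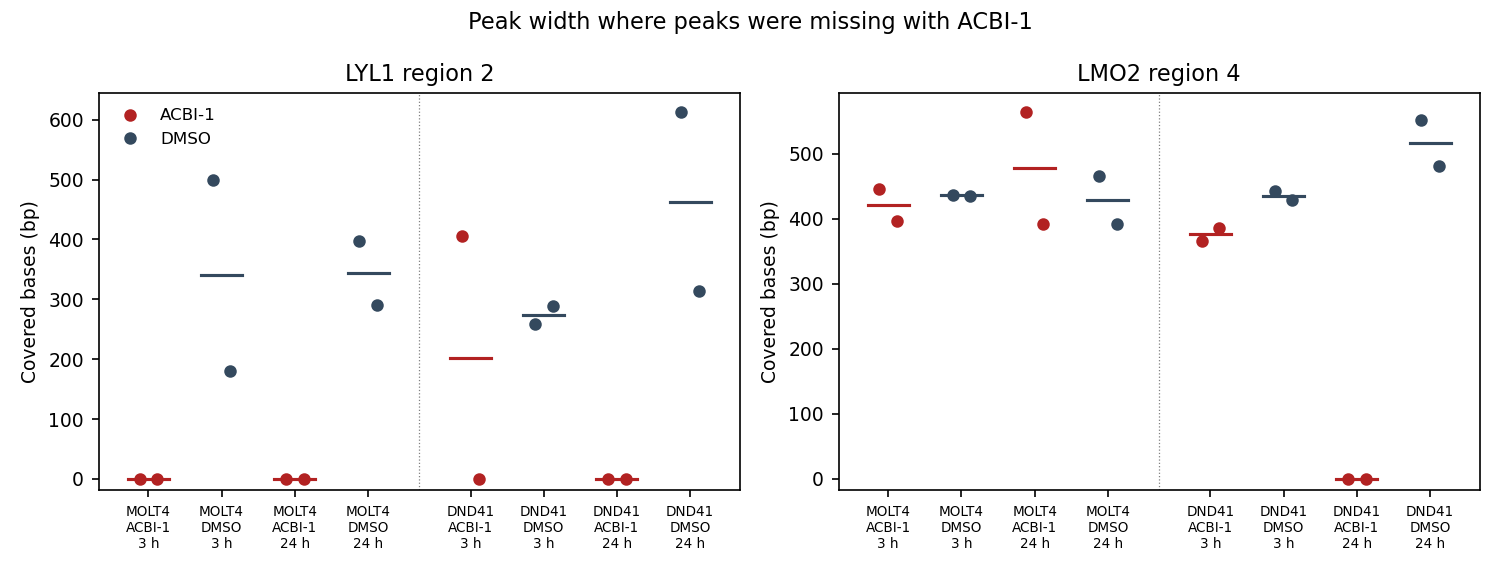
Covered bases (bp, linear axis from 0) at LYL1 region 2 and LMO2 region 4 in the 8 groups; each point is 1 library and each bar the mean of 2. LYL1 region 2 is at 0 in 7 of 8 ACBI-1 libraries and above 0 in all 8 DMSO libraries, and LMO2 region 4 is at 0 only in the 2 DND41 libraries given ACBI-1 for 24 h.

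LMO2 region 4 (chr11:33915277-33915904) was the site of the LMO2 window that both lines shared, and it had the largest median cover of that window. In MOLT4 it covered 445 and 397 bases after 3 h of ACBI-1 and 437 and 435 bases after 3 h of DMSO, and at 24 h 564 and 392 bases with ACBI-1 and 466 and 391 bases with DMSO. In DND41 it covered 366 and 386 bases after 3 h of ACBI-1 and 442 and 428 bases after 3 h of DMSO. At 24 h it was at 0 in both DND41 ACBI-1 libraries, against 551 and 481 bases with DMSO. ACBI-1 and DMSO ranges overlapped in MOLT4, while in DND41 both ACBI-1 values at 3 h lay below both DMSO values and both peaks were missing at 24 h. Among 24799 regions with a peak in all 4 DND41 DMSO libraries, 6.89% had this order of a peak in both ACBI-1 libraries at 3 h and in neither at 24 h, and LMO2 region 4 was the 1 such region among 6 in the windows.

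At LMO2 region 4 too few peaks were missing for a presence test of treatment, so its change was read from a limma fit of log2(covered bases + 100) over 28315 regions with a peak in at least 8 libraries, with missing peaks as 0. In that fit the change with ACBI-1 was 1.43 log2 higher in MOLT4 than in DND41 (SE 0.15, adjusted p = 0.00165) and 1.15 log2 lower at 24 h than at 3 h (value -1.15, SE 0.15, adjusted p = 0.00197). LMO2 region 4 was the 1 of 11 window regions called for each of these differences, against 2.22% of all regions between lines and 4.36% between times. In the same fit 2 of 11 were called as lower with ACBI-1, against 26.8% of all regions called for treatment in either direction. They were LMO2 region 4 (-0.68 log2, SE 0.08, limma adjusted p = 1.52e-04) and LYL1 region 2 (-1.84 log2, SE 0.31, limma adjusted p = 0.00206). LYL1 region 2 met the 8-library minimum through 8 DMSO libraries and 1 ACBI-1 library. Its treatment call here is therefore no further support for its presence call. In a limma fit of the 8 MOLT4 libraries alone, LMO2 region 4 changed by 0.04 log2 with ACBI-1 (SE 0.14, limma adjusted p = 0.892). Between the lines 6 of 11 were called, against 28.9%. Among these 6, TAL1 region 7, TAL1 region 8 and LMO2 region 6 met the 8-library minimum through 8 MOLT4 libraries and 0 DND41 libraries. Their line calls in this fit were therefore fixed by the filter and are no further support. LMO1 region 3 met the minimum through 7 DND41 libraries and 1 MOLT4 library, so its line call is no further support either. All calls of LMO2 region 4 in this fit rest mainly on the same 2 DND41 libraries without a peak. They are 1 observation and not separate results. Leaving out each library in turn gave an ACBI-1 change of LMO2 region 4 of 1.32 to 1.54 log2 between lines and -1.25 to -1.04 log2 between times. Each such fit keeps at least 1 of the 2 DND41 libraries without the peak. The group mean there stays the same, so leaving out 1 library cannot test these calls. A group with no peak in either library has no spread in such a fit, so its standard errors are likely to be too small. The log2 size is set by the 100 bases added: with 10, 50 or 200 bases instead, the difference between lines was 3.0, 1.88 or 1.02 log2 and that between times -2.66, -1.57 or -0.78 log2, with limma adjusted p up to 0.00972.

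LMO1 region 4, whose values are given above, had a like order in MOLT4, with peaks of 462 and 432 bases at 3 h of ACBI-1 that were below the DMSO peaks of 575 and 543 bases, and no peak at 24 h of ACBI-1. It had too few peaks for a presence test of treatment. The order counted genome-wide was a peak in both ACBI-1 libraries at 3 h and in neither at 24 h, whatever the widths. It was found at 13.6% of 4543 regions with a peak in all 4 MOLT4 DMSO libraries and no DND41 DMSO library. In the windows LMO1 region 4 was 1 of 4. The peak names of all libraries of 3 h carry one tag and those of 24 h another, so for LMO1 region 4 and LMO2 region 4 time and any difference in preparation or peak calling behind the tag cannot be told apart.

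Of the 8 window regions with a peak in all 4 MOLT4 DMSO libraries, 6 had one in all 4 MOLT4 ACBI-1 libraries, against 58.8% genome-wide, and of the 6 with a peak in all 4 DND41 DMSO libraries, 2 had one in all 4 DND41 ACBI-1 libraries, against 60.4%. Besides LMO1 region 4, the other 3 of the 4 sites absent from DND41 DMSO libraries, TAL1 region 7, TAL1 region 8 and LMO2 region 6, had a peak in all 4 MOLT4 ACBI-1 libraries. Genome-wide 29.0% of the 4543 regions did so. Their widths overlapped between treatments at TAL1 region 7 (544 ± 183 bases with ACBI-1 and 618 ± 115 bases with DMSO, SD, n = 4 each) and LMO2 region 6 (630 ± 165 bases with ACBI-1 and 718 ± 73.0 bases with DMSO, SD, n = 4 each). TAL1 region 8 was the narrowest with ACBI-1 at 24 h, where 489 and 319 bases lay below the DMSO values of 727 and 810 bases, and the treatments overlapped at 3 h.

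In a limma fit on the 8 MOLT4 libraries alone, chosen after these sites were seen, TAL1 region 8 was 0.96 log2 narrower with ACBI-1 at 24 h (value -0.96, SE 0.24, adjusted p = 0.120) and differed by -0.06 log2 at 3 h (SE 0.24, adjusted p = 0.957). Over both times it was -0.51 log2 (SE 0.17, adjusted p = 0.181), and the difference between times was -0.90 log2 (SE 0.34, adjusted p = 0.529). The mean change of TAL1 region 7 was -0.22 log2 (SE 0.15, adjusted p = 0.460) and that of LMO2 region 6 was -0.22 log2 (SE 0.21, adjusted p = 0.579). The median change over all 15915 regions of that fit was -0.14 log2. None of the 6 window regions was called over both times, against 0.754% of all regions, or at 24 h, against 1.63%, and in each case 1 of 6, TAL1 region 8, had an unadjusted p under 0.05.

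Regions present in all 16 libraries were on the whole slightly narrower with ACBI-1, by a median of -0.12 log2, and 6.39% of them were called. TAL1 region 10 changed by -0.15 log2 (SE 0.09, adjusted p = 0.297), with 629 ± 62.1 bases in ACBI-1 libraries and 707 ± 132 bases in DMSO libraries (SD, n = 8 each). TAL1 region 2 changed by -0.20 log2 (SE 0.14, adjusted p = 0.368), by -0.34 log2 without the second DND41 library given ACBI-1 for 3 h (adjusted p = 0.0267) and by -0.069 log2 without the first (adjusted p = 0.669). The limma fit thus called 0 of 2 regions for treatment, with 0 of 2 at an unadjusted p under 0.05. It also called 0 of 2 for the difference in treatment effect between lines, where 0% of all regions were called and 0 of 2 had an unadjusted p under 0.05. For the difference between times, where 0.0748% were called, limma called 0 of 2, and 1 of 2, TAL1 region 10, had an unadjusted limma p under 0.05 (-0.42 log2, SE 0.18, limma adjusted p = 0.628).

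Whole windows were then compared between treatments. The LYL1 window fell to 234 ± 184 covered bases in ACBI-1 libraries, against 582 ± 311 bases in DMSO libraries (SD, n = 8 each), a change of -59.8% (two-sided exact permutation p = 0.0123). ACBI-1 libraries covered 0 to 543 bases of it and DMSO libraries 181 to 997 bases, so the groups overlapped. Its peak number fell to 0.875 with ACBI-1, against 1.88 with DMSO (exact permutation p = 0.0370). Cover and peak number both include LYL1 region 2, with a peak in 1 of 8 ACBI-1 and 8 of 8 DMSO libraries. These window results are therefore not independent of the call at that site. As a share of the whole list the LYL1 window covered 17.4 bases per Mb of listed sequence with ACBI-1 and 29.9 bases per Mb with DMSO (exact permutation p = 0.102), so the difference no longer passed once the shorter lists were allowed for, and with lists of equal length it was -151 bases (exact permutation p = 0.153). The call on peak number was lost without any 1 of 9 of the 16 libraries, with exact permutation p up to 0.0741.

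In the TAL1 window no difference was detected, at 2025 ± 876 bases with ACBI-1 and 2091 ± 864 bases with DMSO (SD over 8 libraries each, exact permutation p = 0.674). Its peak number was 4.38 with ACBI-1 and 4.25 with DMSO (exact permutation p = 1). Since the ACBI-1 lists were shorter, the TAL1 window took a larger share of them, 144 bases per Mb with ACBI-1 against 110 bases per Mb with DMSO, which is 31.7% more (exact permutation p = 0.00154). The cover of whole lists changed by -26.9% with ACBI-1, so any window with unchanged cover gains share. The larger share is therefore not particular to TAL1. The LMO1 window covered 431 ± 262 bases with ACBI-1 and 540 ± 263 bases with DMSO (SD, n = 8 each, exact permutation p = 0.465), and its difference of -109 bases was -199.5 bases without the first and -18.25 bases without the second MOLT4 library given ACBI-1 for 24 h. The LMO2 window covered 752 ± 672 bases with ACBI-1 and 975 ± 571 bases with DMSO (SD, n = 8 each, exact permutation p = 0.144). As shares of the list, the LMO1 and LMO2 windows were 2.44 and 2.35 bases per Mb higher with ACBI-1 (exact permutation p = 0.752 and p = 0.781), so the sign of the change in TAL1, LMO1 and LMO2 cover depended on whether the shorter lists were allowed for.

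The LMO2 difference of -222 bases was -286 bases without the first MOLT4 library given ACBI-1 for 24 h (exact permutation p = 0.0386) and -273 bases without the second MOLT4 DMSO library of 24 h (exact permutation p = 0.0448). The LMO2 window of MOLT4 also held regions seen in few libraries. LMO2 regions 1, 3 and 5 each had a peak of 219 to 278 bases in 1 MOLT4 library, and LMO2 region 2 had peaks of 464 bases in 1 MOLT4 library with ACBI-1 and of 221 and 793 bases in the 2 MOLT4 libraries of 3 h with DMSO.

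**Figure D4:**
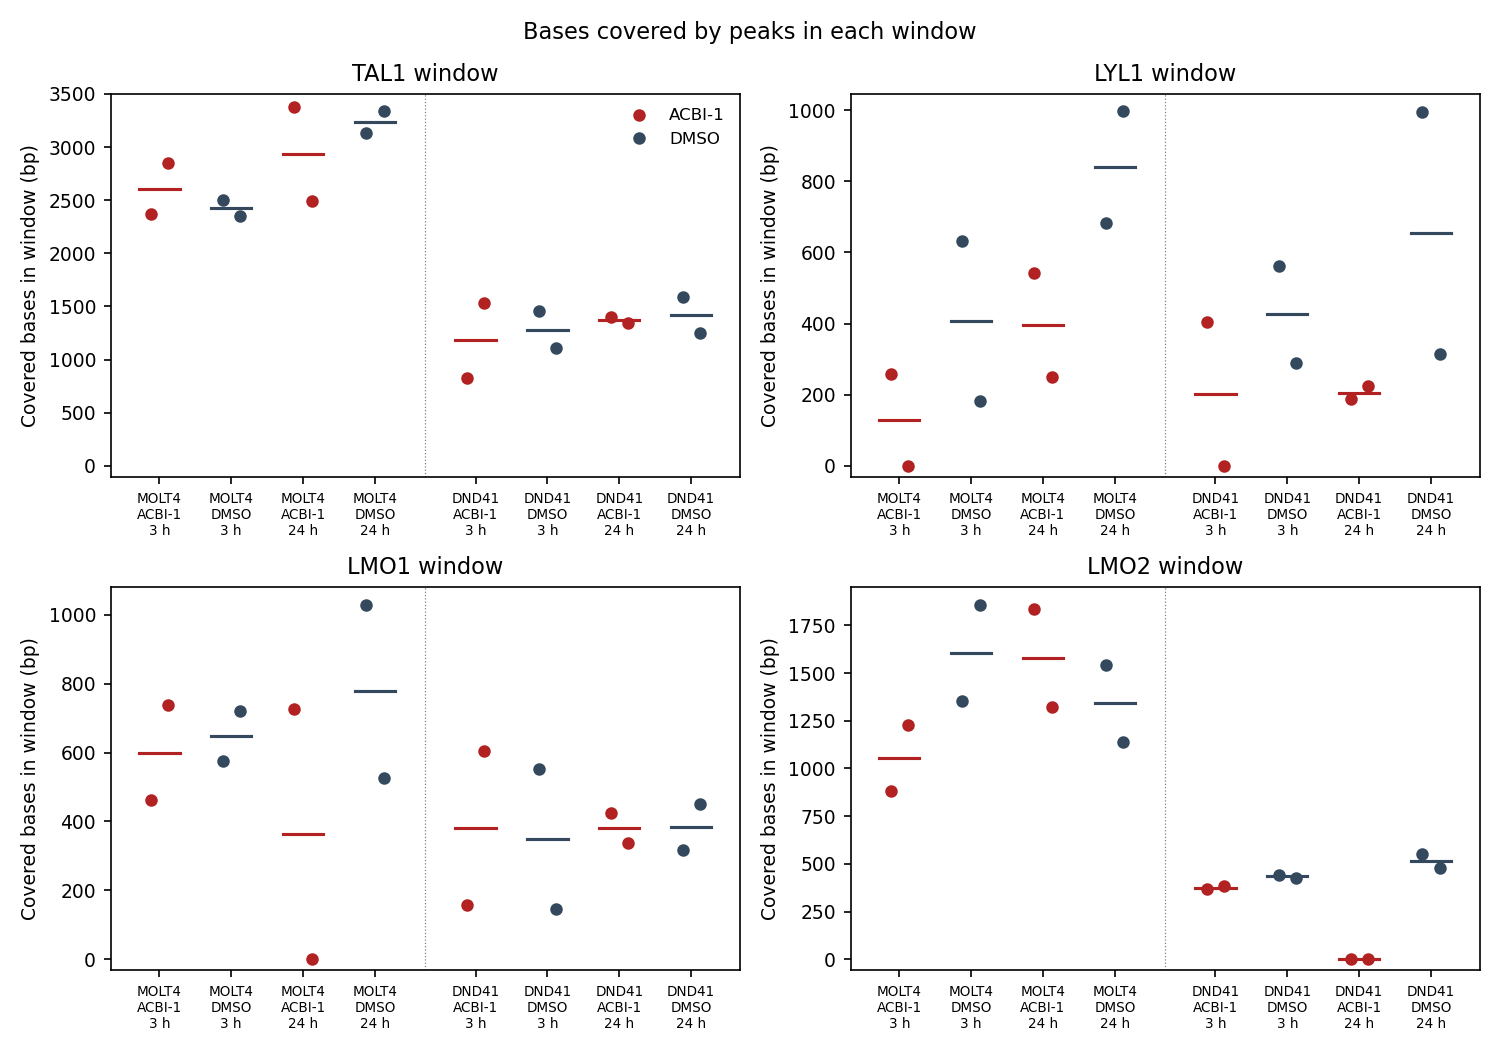
Bases covered by peaks (bp, linear axis from 0) in the TAL1, LYL1, LMO1 and LMO2 windows in the 8 groups; each point is 1 library and each bar the mean of 2. In the TAL1 and LMO2 panels every MOLT4 point lies above every DND41 point, and in the LYL1 panel ACBI-1 points run from 0 to 543 and DMSO points from 181 to 997.

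The remaining regions varied in how many libraries held them. In the TAL1 window, region 1 had peaks of 144 to 281 bases in 4 libraries, region 3 had peaks of 150 to 811 bases in 13 libraries, and regions 4, 5, 6 and 9 each had a peak of 151 to 305 bases in 1 MOLT4 library. TAL1 regions 5 and 6 lay 269 and 33 bases from TAL1 region 7 and did not touch it. In the LYL1 window, region 4 had peaks in 3 of 8 ACBI-1 and 5 of 8 DMSO libraries and region 1 in 2 of 8 of each, all of the DND41 and MOLT4 peaks of region 1 being from 24 h. LYL1 region 3 and LMO1 region 2 each had a peak in 1 library, the first MOLT4 library given ACBI-1 for 24 h.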

How the data were processed

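ATAC-seq peak lists of 16 libraries, 1 per library, were used as the authors deposited them: 4 columns (chromosome, start, end, peak name), a positional (other) unit with no score or height. Per the submitters' processing notes the tools were MACS2 2.1.1.2016030, Bowtie2, SAMtools and Picard and the build hg19; settings are not given. Peak names hold the tag p03 at 24 h and p04 at 3 h; what it stands for is not stated. Depth is unknown, and no label tells if libraries of 1 group come from different cultures, so each p-value reflects the spread among libraries, possibly a technical one.

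Starts were moved to count from 1, chromosomes 1 to 22 and X were kept, and peaks with 1 base in common were merged. Presence and window cover were tested over all 1296 exchanges of labels within the other 2 factors, two-sided; within 1 line the smallest p is 0.0556. Only regions able to reach 0.05 were tested, and p-values were adjusted over all of them genome-wide. Widths were tested with limma 3.58.1 (R 4.3.3) on 8 group means, with Python 3.11.15 for the rest. Both tests were run on simulated data with known changes, but without a difference in list length. The fit with missing peaks as 0 was not simulated. The members and lists were chosen with earlier results of these data known. Values in every library are given for regions of the windows called in a main test and for the region of each window with the largest median cover; the values named for TAL1 region 2, the 24 h width of TAL1 region 8 and the regions of 1 library were singled out after they were seen. The partners GATA3, RUNX1, MYB, TCF3, TCF12 and LDB1 were to be counted only with an hg19 annotation and were not.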

Additional observations from a re-analysis of the deposited data

Results flagged for a closer look

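LMO2 region 4, the site of the LMO2 window shared by both lines, differed between the lines in its change with ACBI-1. On the log2 scale of covered bases + 100 the change was 1.43 higher in MOLT4 than in DND41 by limma's test of the difference. The change at LMO2 region 4 also differed between the times, at -1.15 for 24 h minus 3 h. The 2 DND41 libraries given ACBI-1 for 24 h had no peak there and the other 14 libraries had one, so the sizes depend on the 100 bases added and the standard errors are likely to be too small. Time and the tag in the peak names cannot be told apart.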

How the results depend on the processing

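TAL1 regions 7 and 8, LMO2 region 6 and LMO1 region 4 kept their line calls under all alternatives run on presence, and the TAL1 and LMO2 windows kept theirs for cover and peak number. Replicate numbers did not pair the libraries, since same-numbered libraries deviated with correlations of -0.142 to 0.00619 within a line and time. The fit with the replicate block called 1760 regions as more frequent in DND41 and 39 widths for treatment. It called 0 widths by time, 0 in MOLT4 and 0 in MOLT4 at 24 h, and put LMO1 region 3 at an adjusted p of 0.0795. The pairing crossed in DND41 at 3 h, added after the data were seen, called 0 by time. With peaks of at least 200 bp only, 607 regions were lost and 1 gained with ACBI-1, of which 0 in the windows, and 0 widths were called by time, 48 in MOLT4 and 128 in MOLT4 at 24 h. The LYL1 peak number then differed by -0.75 (exact permutation p = 0.0988). With lists of equal length, 0 regions were lost and 0 gained, 0 of them in the windows, and widths were called at 1 window region between lines, at 3 regions by time, 32 in MOLT4 and 124 in MOLT4 at 24 h. Window cover then differed with ACBI-1 by 113 bases at TAL1 and -151 bases at LYL1, and peak number by 1.0 at TAL1 (exact permutation p = 0.0278), -0.125 at LYL1, 0.375 at LMO1 and 0.125 at LMO2. With peaks within 100 bp merged, 838 regions were lost and 1 gained, and the width of TAL1 region 7 in MOLT4 changed by 0.046 log2. Centring widths per library left 201 treatment calls, 1 window region between lines, 0 by time, 15 in MOLT4 and 57 in MOLT4 at 24 h, and gave -0.028 log2 at TAL1 region 10 between lines. With regions in at least 8 libraries, missing peaks as 0 and 100 bases added, changed together, covered bases were called at 7583 regions for treatment (2 in the windows), 8181 between lines (6), 629 for treatment by line (1) and 1234 by time (1). As shares of the list, per 1000000 listed bases or peaks, cover differed with ACBI-1 by 34.7 at TAL1, -12.5 at LYL1, 2.44 at LMO1 and 2.35 at LMO2. Peak number differed by 41.5 at TAL1, -15.6 at LYL1, 8.46 at LMO1 and 9.95 at LMO2. Leaving out 1 library at a time gave 0 to 1110 regions lost and 0 to 6 gained, with 0 to 1 in the windows; fewer libraries also raise the smallest p an exact test can give. Width calls ran between 214 and 1545 for treatment (0 to 1 in the windows), 674 and 1574 between lines (0 to 1), 0 and 1 for treatment by line, 0 and 16 by time, 0 and 312 in MOLT4 and 0 and 290 in MOLT4 at 24 h. Without 1 library, treatment differences ran from -177 to 44.0 bases (TAL1 cover), -0.125 to 0.375 (TAL1 peaks), -1.25 to -0.75 (LYL1 peaks), -199.5 to -18.25 bases (LMO1 cover), -0.5 to 0.25 (LMO1 peaks) and -286 to -158 bases (LMO2 cover). Line differences ran from -14.0 to 157 bases (LYL1 cover), 132 to 313 bases (LMO1 cover) and -0.25 to 0.5 (LMO1 peaks). On the log2 scale, TAL1 region 10 ran from -0.050 to 0.11 between lines, TAL1 region 2 from -0.089 to 0.45 by time, and LMO2 region 6 in MOLT4 from -0.46 to 0.011 for treatment. Causes of these shifts were not tested.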
